A study of Homo sapiens with 6 samples.

Results

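The 10 genes described here encode cytosolic and organelle HSP70 and HSP90 chaperones, their HSP110 partners and a small heat shock protein: HSPA8, HSPA1A, HSPA1B, HSPA9, HSPA4, HSPH1, HSP90AA1, HSP90AB1, HSP90B1 and HSPB1. They were taken by name from a list titled as HSP70 and HSP90 chaperones used by STUB1, and not all are cytosolic HSP70 or HSP90. They are 10 of 19974 protein-coding genes on chromosomes 1 to 22 and X, and the rule used no measured value. Every accessible region (peak) within a gene body or 10 kb of it was collected, and peaks within 1000 bp of either end of a gene were counted as gene-end peaks. Accessibility was measured by ATAC-seq, where the transposase Tn5 tags open DNA with adapters, in Huh7, an established human hepatocellular carcinoma line. Each group had 2 libraries, and each library gave its own list of peaks.

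All 6 libraries came from Huh7 cells in which ARID1A, a subunit of the SWI/SNF chromatin remodelling complex, had been knocked out. The V2084D shSTUB1 cells stably expressed lentiviral Flag-tagged ARID1A with the missense change V2084D and had STUB1 knocked down. The V2084D cells expressed the same ARID1A form without the knockdown, and the WT cells expressed Flag-tagged wild-type ARID1A. No control hairpin is named for the V2084D and WT cells, so the effect of a hairpin as such and the loss of STUB1 cannot be told apart. The labels do not say whether the knockout line was a single clone, which promoter drove the transgene, or whether replicates came from separate cultures, so the spread between replicates may be technical.

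HSP70 proteins bind exposed hydrophobic stretches of unfolded clients in a cycle driven by ATP, J-domain proteins deliver the clients, and HSP110 proteins exchange the nucleotide that ends each round. Clients that need further maturation pass to HSP90 through the adaptor STIP1. STUB1, also called CHIP, is a ubiquitin ligase that docks on the C-terminal tails of cytosolic HSP70 and HSP90 and marks the bound client for degradation. The transcription factor HSF1 raises heat-inducible chaperones through heat shock elements, which are arrays of GAA units in alternating orientation. Chaperones of the endoplasmic reticulum are raised instead by the unfolded protein response through ER stress elements.

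The sequences shown are the 250 bases before annotated start sites, from RefSeq (GRCh38.p14), read 5′ to 3′ along each gene. They were picked because they hold the elements of heat shock control or ER stress control, or, for HSPA1A and HSPA1B, because the copies are nearly identical. Motifs were searched on both strands of windows of 300 bases, 250 before to 50 after the start. Capitals mark a heat shock element of 2 units, GAANNTTC or TTCNNGAA, and overlapping matches form the 3-unit element GAANNTTCNNGAA. In the HSP90B1 sequence capitals mark CCAAT boxes and the ER stress element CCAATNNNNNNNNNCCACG, which begins with a CCAAT box.
HSPA8, chr11:123062137-123062386, minus strand: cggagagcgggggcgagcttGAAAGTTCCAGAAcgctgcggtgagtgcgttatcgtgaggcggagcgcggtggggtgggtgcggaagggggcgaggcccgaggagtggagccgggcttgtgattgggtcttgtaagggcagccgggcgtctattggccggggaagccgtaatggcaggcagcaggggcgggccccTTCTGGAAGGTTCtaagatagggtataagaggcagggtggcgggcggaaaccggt
HSPA1A, chr6:31815293-31815542, plus strand: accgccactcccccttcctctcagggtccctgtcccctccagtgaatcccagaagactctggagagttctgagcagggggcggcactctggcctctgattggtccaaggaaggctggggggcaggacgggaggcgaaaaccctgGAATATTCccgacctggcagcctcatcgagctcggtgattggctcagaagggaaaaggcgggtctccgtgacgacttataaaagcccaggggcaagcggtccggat
HSPA1B, chr6:31827488-31827737, plus strand: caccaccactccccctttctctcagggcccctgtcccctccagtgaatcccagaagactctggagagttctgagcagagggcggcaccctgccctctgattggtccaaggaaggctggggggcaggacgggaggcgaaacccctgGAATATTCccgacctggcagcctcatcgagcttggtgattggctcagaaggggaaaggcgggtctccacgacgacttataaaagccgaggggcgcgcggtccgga
HSP90AA1, internal start, chr14:102087045-102087294, minus strand: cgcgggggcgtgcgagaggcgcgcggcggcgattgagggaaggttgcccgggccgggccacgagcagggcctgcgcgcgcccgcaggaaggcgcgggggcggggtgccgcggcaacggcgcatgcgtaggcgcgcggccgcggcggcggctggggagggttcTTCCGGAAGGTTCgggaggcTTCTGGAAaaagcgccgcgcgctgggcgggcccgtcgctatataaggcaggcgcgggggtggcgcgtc
HSP90AB1, the third start, chr6:44247693-44247942, plus strand: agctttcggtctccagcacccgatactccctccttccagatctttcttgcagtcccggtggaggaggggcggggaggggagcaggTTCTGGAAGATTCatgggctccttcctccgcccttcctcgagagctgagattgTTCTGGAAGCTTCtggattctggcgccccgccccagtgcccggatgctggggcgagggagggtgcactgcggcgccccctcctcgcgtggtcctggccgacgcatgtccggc
HSP90B1, chr12:103930160-103930409, plus strand: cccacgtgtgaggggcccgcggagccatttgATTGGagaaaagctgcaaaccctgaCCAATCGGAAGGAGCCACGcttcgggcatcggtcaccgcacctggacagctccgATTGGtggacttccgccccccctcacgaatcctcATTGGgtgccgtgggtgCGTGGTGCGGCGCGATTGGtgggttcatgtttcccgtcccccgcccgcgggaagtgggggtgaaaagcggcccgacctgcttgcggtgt
HSPB1, chr7:76302423-76302672, plus strand: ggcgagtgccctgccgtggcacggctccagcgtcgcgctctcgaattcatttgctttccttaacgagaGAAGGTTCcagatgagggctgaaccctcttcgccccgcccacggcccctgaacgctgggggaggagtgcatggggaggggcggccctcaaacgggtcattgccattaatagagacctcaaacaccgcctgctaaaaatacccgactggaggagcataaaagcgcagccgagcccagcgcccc

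The 10 genes had 13 annotated start sites, all matched in the RefSeq table. A heat shock element of 2 units lay in 7 of these 13 windows, against 13.5% of 35116 windows genome-wide, of which 22156 belonged to protein-coding genes. These 7 windows belonged to HSPA8, HSPA1A, HSPA1B, HSPA9, the internal start of HSP90AA1, the third start of HSP90AB1 and HSPB1. The 3-unit element was rarer, in 172 windows or 0.49% of all and in 0.406% of protein-coding windows, and 3 of the 13 held it. HSPA8 had it at −230 to −218 and again at −55 to −43 bp from the start, HSP90AA1 at −88 to −76 bp from its internal start, and HSP90AB1 at −165 to −153 and −112 to −100 bp from the third start. HSP90B1 held the ER stress element at −194 to −176 and at −89 to −71 bp. This element was in 27 windows, 0.0769% of all, and in 0.104% of protein-coding windows. HSP90B1 also had 5 CCAAT boxes, a motif found in 34.6% of windows. A GC box (GGGCGG) was in 12 of the 13 windows, against 56.3% of protein-coding windows and 45.0% of all, and was missing from that of HSPH1. TATAA lay in 6 of 13 windows, in 16.5% of protein-coding windows and in 20.4% of all. The HSPA8 sequence, the internal HSP90AA1 sequence and the third HSP90AB1 sequence lie inside the annotated gene bodies, and whether they are exonic or intronic was not determined. These matches describe letters in the windows and do not show that a factor was bound.

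The 6 peak lists differed in length, and this bears on every count below. They held 7401 to 30768 summits, with V2084D replicate 2 the longest and WT replicate 2 the shortest. Relative sequencing depth, estimated from the lowest background in each list, was 1 to 1.70 and followed the same extremes. It did not follow list length throughout: V2084D replicate 1, at 1.17, had 9231 summits, and WT replicate 1, at 1.01, had 10441. The median summit rested on 8 to 12 reads, so a missing peak means that too few reads were found for a call, whether or not the site was closed. Of 16 hepatocyte marker genes, 12 had no gene-end peak in any library, ALB, AFP and HNF4A among them, while FOXA3 had one in 5 libraries and TF in 4, so the liver origin rests on the labels more than on these peaks. Of other cell types, 1 of 5 leukocyte, 1 of 3 endothelial, 1 of 4 fibroblast and 1 of 3 neuronal markers had a gene-end peak in some library. COL1A1, a fibroblast collagen gene, and SYT1, a neuronal vesicle gene, were marked by one in each of the 6 libraries, KDR in 5 and SPI1 in 3, while the leukocyte marker PTPRC and the endothelial marker PECAM1 had none. STUB1 had no gene-end peak in any library, and ARID1A had one in V2084D shSTUB1 replicate 2 (fold 5.80). Peaks at these genes do not check the knockdown or the knockout.

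The chaperone genes carried gene-end peaks in every library, and in each at a higher share than protein-coding genes at large. The margin was small in V2084D replicate 1, 4 of 10 beside 31.1%, where HSP90AA1, which shares its peak with WDR20, was among the 4. In the V2084D shSTUB1 libraries 9 and 7 of the 10 genes had a gene-end peak, in the V2084D libraries 4 and 9, and in the WT libraries 8 and 5. The share of all 19974 genes with such a peak was 48.1% and 40.6% in V2084D shSTUB1, 31.1% and 54.7% in V2084D, and 32.3% and 24.2% in WT. HSPA9, HSPA4 and HSPH1 carried gene-end peaks in each of the 6 libraries, as did 15.8% of all genes. HSPA8, HSP90AA1 and HSP90B1 had one in 5 libraries, HSP90AB1 in 4, HSPB1 in 3 and HSPA1B in 2. HSPA1A had none in any library, as did 41.8% of all genes. The 6 genes with a peak in 5 or 6 libraries compare with 26.9% of all genes.

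**Figure D1:**
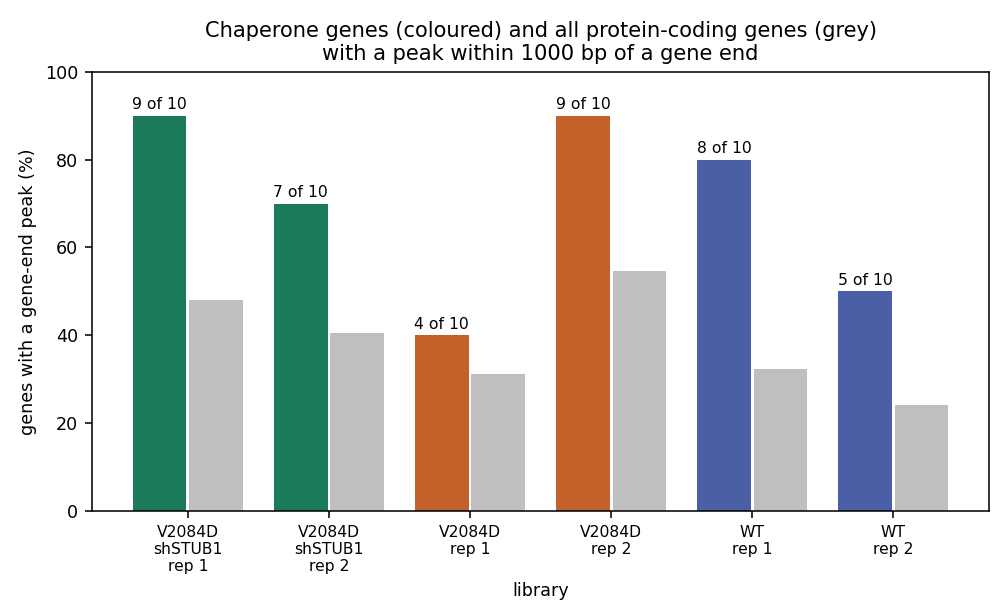
Share of genes with a peak within 1000 bp of a gene end, in percent, for each library from V2084D shSTUB1 through V2084D to WT. Coloured bars stand for the 10 chaperone genes and grey bars for all 19974 protein-coding genes. The coloured bar is the higher of the pair in every library, by a small margin in V2084D replicate 1. Counts run from 4 of 10 in V2084D replicate 1 to 9 of 10 in V2084D shSTUB1 replicate 1 and V2084D replicate 2.

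Peak height is given below as fold over local background, with its percentile of −log10 q within the library's own list and the whole reads recovered at the summit. Fold and q were computed by the authors, and they rank peaks within a list. Lists of different length rank differently, so these values describe each library and show no change between groups. Presence of a peak is what was set side by side. In these bulk libraries, opening in fewer cells and weaker opening in each cell cannot be told apart.

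HSPA8 (chromosome 11, 123057489 to 123062462, minus strand) encodes HSC70, the constitutive cytosolic HSP70. Its gene-end peak had a fold of 7.31 and 7.50 in V2084D shSTUB1, of 7.42 in V2084D replicate 2, and of 5.45 and 6.94 in WT, and V2084D replicate 1 had no peak. The peak ranked at the 89.4 and 88.2 percentile in the V2084D shSTUB1 lists, at 84.8 in V2084D replicate 2, and at 49.6 and 87.2 in the WT lists. It was thus a high-ranking peak in 4 of the 5 lists that held it, and a middling one in WT replicate 1, where 10 reads made up the summit against 14 to 18 elsewhere. The 5 peaks shared 457 bp, from 123062234 to 123062690. In 3 libraries, 1 in each group, the peak had 2 summits, 266 to 273 bp apart. In these 3 libraries the nearer summit lay 147 to 178 bp before the start, between the 2 heat shock elements marked in its sequence, and the farther one 413 to 451 bp before it. The farther element lay inside the peak in all 5 libraries and the nearer element in 3, V2084D shSTUB1 replicate 2, V2084D replicate 2 and WT replicate 2. A separate weak peak, of fold 4.55, lay beyond the other end of HSPA8 in V2084D replicate 1 only, 7205 bp downstream of the start.

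HSPA1A (chromosome 6, 31815543 to 31817942, plus strand) and HSPA1B (chromosome 6, 31827738 to 31830254, plus strand) encode the heat-inducible HSP70, and their proteins are nearly identical. HSPA1A had no peak at its gene ends in any library. HSPA1B had a peak of fold 4.61 in V2084D shSTUB1 replicate 1 and of 6.48 in V2084D replicate 2, and none in V2084D shSTUB1 replicate 2, V2084D replicate 1 or the WT libraries. The peaks rested on 6 and 13 reads and ranked at the 19.4 and 68.1 percentile of their lists, which were the 2 longest. Both covered the heat shock element at −105 to −98 bp, and V2084D replicate 2 had a further weak peak of fold 3.24, 817 bp before the start. The 300-base windows at the HSPA1A and HSPA1B starts were identical at 277 of 301 aligned columns, 92.0%, whereas the next most alike pair of the 13 windows reached 55.7%. How reads that fit both copies were treated is unknown (not given in the sources used here), so the absence of HSPA1A peaks and the presence of HSPA1B peaks are uncertain. The lists also held 18 to 192 summits on alternate contigs of chromosome 6, most in V2084D replicate 2 and fewest in WT replicate 2, and their part in the counts at this pair was not tested.

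HSPA9 (chromosome 5, 138553756 to 138575401, minus strand) encodes mortalin, the mitochondrial HSP70, which pulls imported proteins into the matrix. Its peak had a fold of 7.89 and 8.88 in V2084D shSTUB1, of 6.04 and 9.93 in V2084D, and of 7.50 and 6.32 in WT. It ranked at the 90.9 and 96.5 percentile in the V2084D shSTUB1 lists, at 69.9 and 97.7 in the V2084D lists, and at 89.4 and 70.5 in the WT lists. The gene was thus open at its start in every library, and the lowest and the highest rank both came from the V2084D group. The 6 peaks shared 550 bp. In 4 libraries the peak had 2 summits, 282 to 343 bp apart, of which the nearer lay 13 to 36 bp before the start. A heat shock element of 2 units crossed the start itself, at −4 to 3 bp, and lay inside the peak in all 6 libraries.

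HSPA4 (chromosome 5, 133052013 to 133106449, plus strand) and HSPH1 (chromosome 13, 31134973 to 31162388, minus strand) encode HSP110 proteins, which act as nucleotide exchange factors of HSP70. HSPA4 had a peak of fold 6.36 and 5.45 in V2084D shSTUB1, of 5.32 and 7.88 in V2084D, and of 5.88 and 4.17 in WT. Its rank ranged from the 9.24 percentile in WT replicate 2, on 7 reads, to the 91.5 percentile in V2084D replicate 2, on 22 reads. The peaks shared 108 bp, and 5 of the 6 libraries had a summit within 126 bp before the start. V2084D replicate 1 was the exception, with its summit 249 bp after it.

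HSPH1 had the highest fold and the highest rank of any of the 10 genes, at 10.22 and the 99.2 percentile in V2084D shSTUB1 replicate 1. The folds were 10.22 and 8.16 in V2084D shSTUB1, 6.70 and 7.67 in V2084D, and 6.99 and 7.37 in WT, on 12 to 27 reads. Its strongest peak ranked lowest in WT replicate 1, at the 82.3 percentile, where a second peak on 9 reads ranked at the 44.3 percentile. The summits fell at 2 places, near the start and 277 to 342 bp into the gene. In the V2084D shSTUB1 libraries and in V2084D replicate 2 both lay in a joint peak, 256 to 285 bp apart. In both WT libraries they lay in 2 separate peaks, and V2084D replicate 1 had the inner summit alone, 277 bp after the start. The WT lists were among the 3 shortest, and the part of list length in whether the summits were joined was not tested. HSPH1 had the lowest GC content of the 13 windows, 51.7%, against a median of 62.3% over windows of protein-coding genes, and its window held no heat shock element.

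HSP90AA1 (chromosome 14, 102080742 to 102139749, minus strand) encodes the inducible cytosolic HSP90 alpha. It has an upstream start at 102139749, where WDR20 begins on the same stretch, and an internal start at 102087044. At the upstream start the strongest peak had a fold of 7.79 and 7.14 in V2084D shSTUB1, of 5.91 and 6.81 in V2084D, and of 6.47 in WT replicate 1, and WT replicate 2 had none. These peaks ranked at the 95.6 and 88.9 percentile in the V2084D shSTUB1 lists, at 74.2 and 90.2 in the V2084D lists and at 81.4 in WT replicate 1. The peak was missing only from the shortest list, and each peak also counted for WDR20, so the peaks cannot be assigned to HSP90AA1 alone.

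The internal start of HSP90AA1, whose sequence holds the 3-unit heat shock element, had a peak close by in the same 5 libraries. Its folds were 6.69 and 6.25 in V2084D shSTUB1, 5.88 and 7.88 in V2084D, and 3.89 in WT replicate 1, where it rested on 6 reads. The summits lay 188 to 602 bp before the internal start. The peaks of V2084D replicate 2 and WT replicate 1 covered the 3-unit element, and those of the other 3 libraries ended before it. This window had the highest GC content of the 13, 75.3%.

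HSP90AB1 (chromosome 6, 44246194 to 44253883, plus strand) encodes the constitutive cytosolic HSP90 beta and has 3 annotated starts. Its strongest gene-end peak had a fold of 5.26 and 6.09 in V2084D shSTUB1, of 6.99 in V2084D replicate 2 and of 4.95 in WT replicate 1. V2084D replicate 1 and WT replicate 2, the lists of 9231 and 7401 summits, had none. The peak ranked between the 29.6 percentile, in WT replicate 1, and the 83.9 percentile, in V2084D replicate 2, and stood lower than the HSP90AA1 peak in each list that held both. The peaks lay at the first start and the second, with windows overlapped in 3 and 2 libraries. The window of the third start, with its 2 elements of 3 units, was overlapped by a peak in 0 of 6 libraries.

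HSP90B1 (chromosome 12, 103930410 to 103947926, plus strand) encodes GRP94, the HSP90 of the endoplasmic reticulum. Its peak had a fold of 6.72 and 7.39 in V2084D shSTUB1, of 6.91 in V2084D replicate 2, and of 5.05 and 7.50 in WT, and V2084D replicate 1 had none. It ranked at the 84.3 to 90.7 percentile in 4 lists and at the 35.5 percentile in WT replicate 1, on 9 reads. The nearer ER stress element lay inside the peak in all 5 libraries, and the farther one in 4, since the WT replicate 1 peak began after it. A second peak 638 to 943 bp before the start was listed in V2084D shSTUB1 replicate 1, V2084D replicate 2 and WT replicate 1.

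HSPB1 (chromosome 7, 76302673 to 76304292, plus strand) encodes HSP27, a small heat shock protein that holds unfolded clients without ATP. Its peaks were low: the fold was 3.91 in V2084D shSTUB1 replicate 1, 4.65 in V2084D replicate 2 and 4.89 in WT replicate 1, on 8 to 11 reads. They ranked at the 10.8, 33.2 and 27.9 percentile of their lists. The 3 libraries were 1 of each group, and no base was common to the peaks of all 3. Before the start, the peaks of V2084D replicate 2 and WT replicate 1 overlapped, and the V2084D shSTUB1 replicate 1 peak lay apart, across the start. The summits lay at 66, −186 and −436 bp from the start, with a further one at 891 bp in V2084D replicate 2. The heat shock element at −182 to −175 bp lay inside the V2084D replicate 2 peak only.

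**Figure D2:**
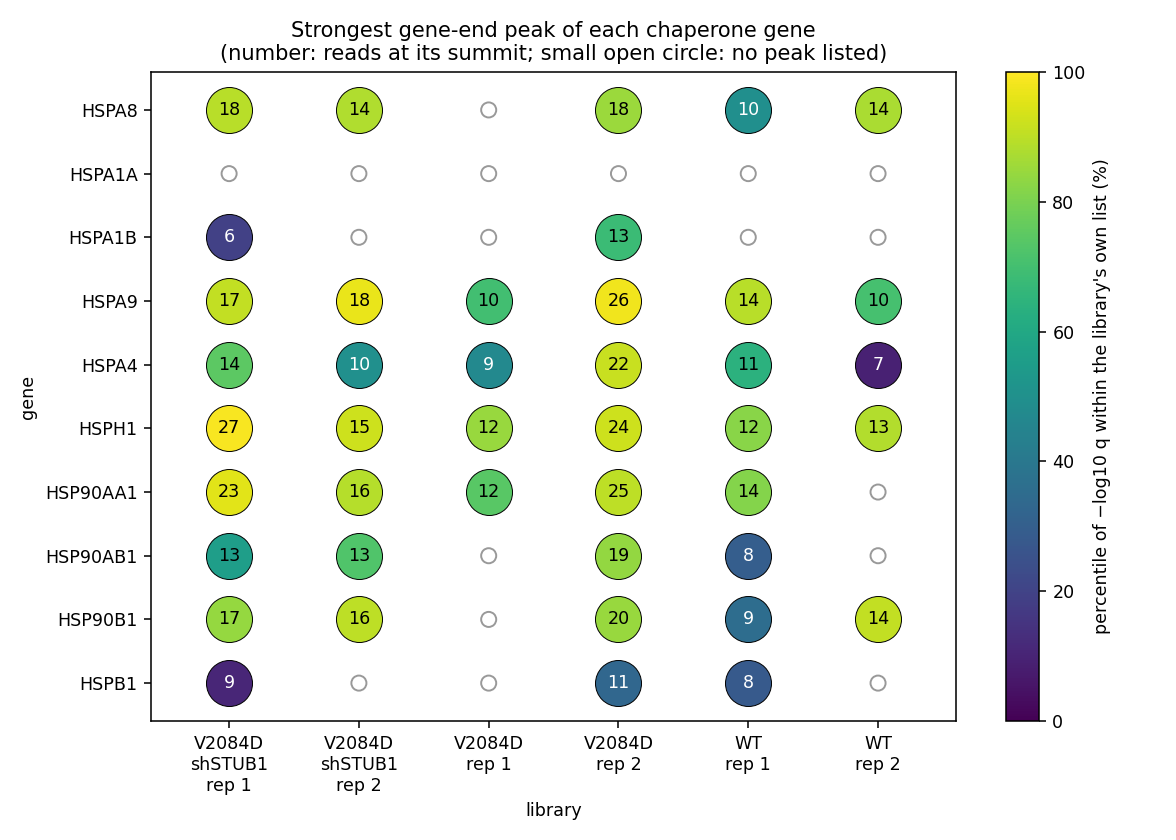
The strongest gene-end peak of each chaperone gene (rows) in each library (columns, V2084D shSTUB1, V2084D, WT). Colour gives the percentile of −log10 q within that library's list in percent, the number in a circle the reads at the summit, and a small open circle a library with no listed peak. HSPA9, HSPA4 and HSPH1 are filled across all 6 columns, HSPA1A is empty across all 6, and V2084D replicate 1 and WT replicate 2 have the most open circles, 6 and 5 of 10.

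**Figure D3:**
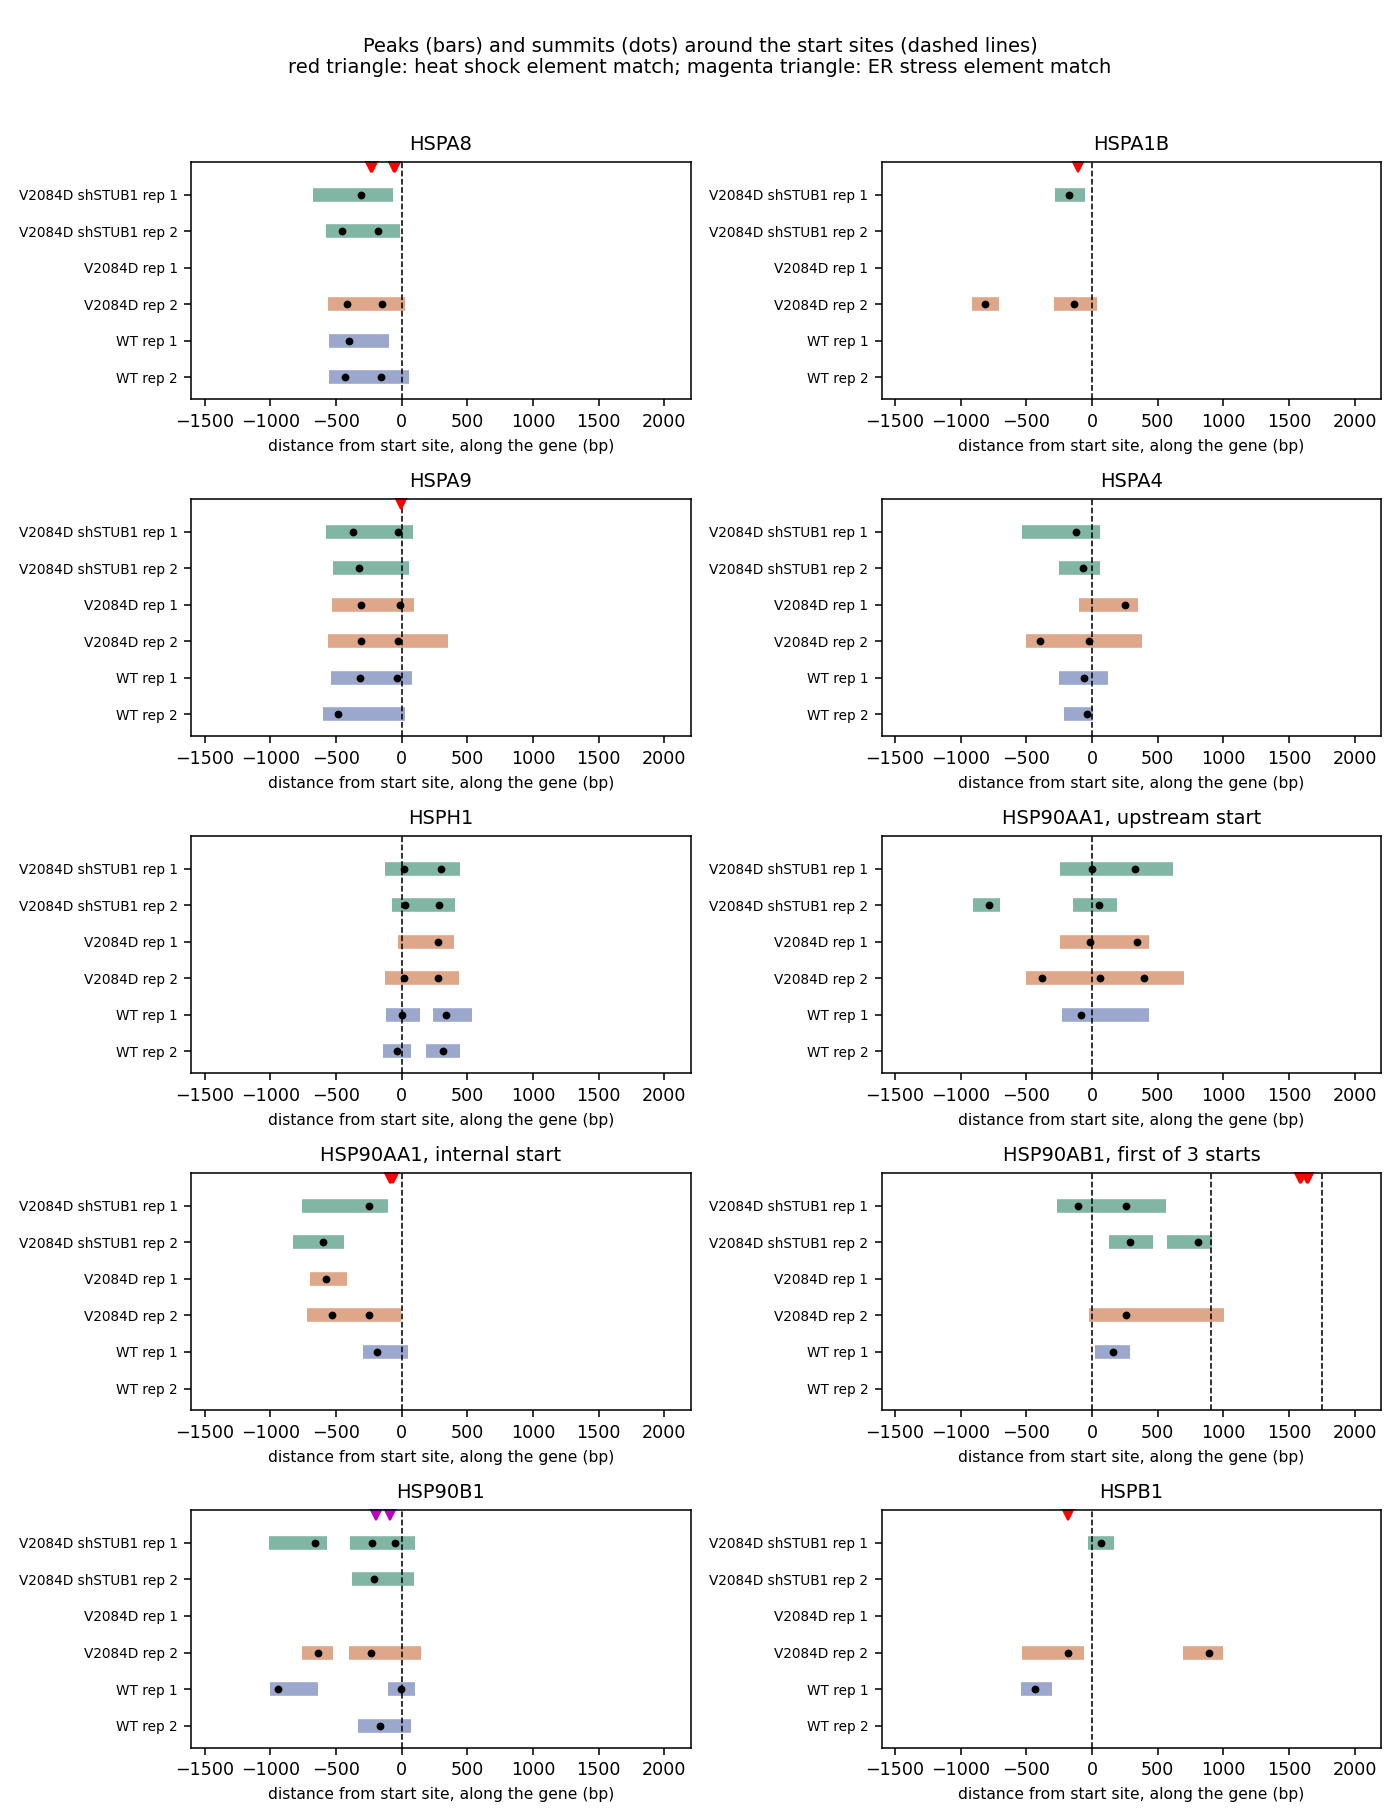
Peaks (bars) and summits (dots) of 9 chaperone genes by distance in bp from a start site (dashed lines), with positive distances into the gene and 1 line per library, in green for V2084D shSTUB1, orange for V2084D and blue for WT. Triangles mark heat shock elements (red) and ER stress elements (magenta), and the farther HSPA8 element lies under peaks in 5 libraries and the nearer in 3, while the HSP90AB1 elements at the third start lie under none. HSPA1A, which had no gene-end peak, is not drawn.

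The chaperone windows with the 3-unit heat shock element were set beside those of all genes. Of 88 windows of protein-coding genes with this element, a peak covered it in 21.6% and 12.5% for the V2084D shSTUB1 libraries, in 13.6% and 25.0% for V2084D and in 13.6% and 12.5% for WT. Of the 3 chaperone windows, the counts were 1 and 1 for V2084D shSTUB1, 0 and 2 for V2084D, and 2 and 1 for WT. HSPA8 made up the single window in each library with a count of 1, and HSP90AA1 joined it in V2084D replicate 2 and WT replicate 1.

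The comparison of V2084D with WT asks whether the missense form of ARID1A goes with other accessible sites than the wild-type protein. No chaperone gene showed a gene-end peak throughout the V2084D libraries and nowhere in WT, a pattern of 1012 of all genes, 5.07%. At this share a count of 0 among 10 genes does not set the chaperone genes apart. None had the opposite pattern, found for 10 genes, 0.0501%. With lists of equal length these shares were 1.97% and 1.73% of all genes, close to each other, and the chaperone counts stayed 0. The number of chaperone genes with a peak averaged 6.5 ± 3.54 in V2084D and 6.5 ± 2.12 in WT (SD, n = 2 each). HSPA8 and HSP90B1 had a peak in both WT libraries and in 1 V2084D library, and HSP90AA1 had peaks in both libraries of V2084D and in 1 of WT. With 2 libraries a group, the smallest two-sided p of an exact permutation test is 0.333, so no test was attached to these counts.

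The comparison of V2084D shSTUB1 with V2084D asks what changes once STUB1, which docks on the cytosolic HSP70 and HSP90 among these chaperones, is knocked down. No chaperone gene had a peak in both V2084D shSTUB1 libraries and in neither V2084D library, a pattern of 73 genes, 0.365%, or the reverse, a pattern of 131 genes, 0.656%. With lists of equal length the shares were 1.27% and 1.68%, and the chaperone counts stayed 0. The number with a peak averaged 8.0 ± 1.41 in V2084D shSTUB1 and 6.5 ± 3.54 in V2084D (SD, n = 2 each), a difference smaller than the SD of the V2084D libraries. HSPA8, HSP90AB1 and HSP90B1 had peaks in both V2084D shSTUB1 libraries and in V2084D replicate 2, and none in V2084D replicate 1. Without V2084D replicate 2, the deepest library by estimate, these 3 genes had peaks in both V2084D shSTUB1 libraries and not in V2084D, as did 10.8% of all genes. HSPA8 and HSP90B1 also had peaks in both WT libraries, and HSP90AB1 in WT replicate 1.

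Between V2084D shSTUB1 and WT, no chaperone gene had a peak in both V2084D shSTUB1 libraries and in neither WT library. Of all genes 1412, 7.07%, had this pattern, a share at which 0 among 10 genes does not set the chaperone genes apart. No chaperone gene had the reverse pattern, found for 27 genes, 0.135%. With lists of equal length both directions held 1.75% of all genes and still no chaperone gene. HSP90AB1 had a peak in both V2084D shSTUB1 libraries and in WT replicate 1. With a −log10 q of at least 5 required, it was in V2084D shSTUB1 and not in WT, as were 6.11% of all genes, whereas with lists of equal length it was in 1 library of each group. Without WT replicate 1 the count was 2, HSP90AA1 and HSP90AB1, beside 15.8% of all genes, and without V2084D shSTUB1 replicate 2 it was 1, HSPA1B, beside 13.8%.

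With every list shortened to its 7234 best-ranked summits, the counts drew closer. They were then 6 and 6 in V2084D shSTUB1, 4 and 7 in V2084D, and 7 and 5 in WT, while 24.7% and 24.3%, 26.5% and 25.0%, and 25.2% and 24.2% of all genes had a peak in those libraries. HSPA9 and HSPH1 kept a peak in all 6 libraries at this length, which 8.41% of genes did, and HSPA1B and HSPB1 kept none. V2084D replicate 1 still had the lowest count.

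Outside gene ends, the V2084D shSTUB1 libraries had 6 and 5 peaks within 10 kb of these genes, the V2084D libraries 3 and 7, and the WT libraries 5 and 2. They fell into 8 places, of which the internal start of HSP90AA1 was one. A peak within the gene UQCC6, downstream of HSP90B1, was in all 6 libraries, with folds of 4.95 to 7.26. A peak at a gene end, 5′ or 3′, of ETF1, a translation termination factor gene that neighbours HSPA9, was in 5 libraries and missing from V2084D replicate 1. Peaks at 8409 to 8549 bp before the first start of HSP90AB1 were in 4 libraries, and at 8098 to 8112 bp before it in 2. A peak at 8140 to 8194 bp before HSPA4 was in 3 libraries, 1 of each group. A peak at a gene end of SLC35B2, near HSP90AB1, was in 2 libraries, V2084D shSTUB1 replicate 1 and V2084D replicate 2. In V2084D shSTUB1 replicate 1 it also lay at a gene end of NFKBIE. At none of the 8 places was a peak listed throughout 1 group and nowhere in another. The same share over all peaks outside gene ends was not computed, so this count does not set the 8 places apart. Within 10 kb of HSPA1A the listed peaks were those of HSPA1B.

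The patterns of HSPA8 and HSP90AA1 across the libraries were set against those of all protein-coding genes, by the mean absolute difference in percentile over the 6 libraries, with 0 for a missing peak. The gene closest to HSPA8 was HSP90B1, at 4.14 percentile points, followed by TUBE1 and FAM229B, at 4.62 each. Their values were equal, so TUBE1 and FAM229B need not be separate likenesses. A peak in 5 or 6 libraries was found for 26.9% of all genes, and how close genes lie to each other in general was not computed. The gene closest to HSP90AA1 was WDR20, at 0, because they share the peak, followed by MXD3 at 3.53 and NOL8 at 3.74.

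Other chaperone genes were taken from a list of 43, of which 42 matched the gene table. They had a gene-end peak in 30 and 24 cases in V2084D shSTUB1, in 24 and 31 in V2084D, and in 22 and 19 in WT, with 15 in all 6 libraries and 11 in none. Of all genes, 24.2% (WT replicate 2) to 54.7% (V2084D replicate 2) had such a peak in a library, 15.8% in all 6 libraries and 41.8% in none. The chaperonin genes, which encode barrel-shaped folding chambers, had the most peaks, 8 to 10 of 10 in each library. HSPD1 and HSPE1, the mitochondrial chaperonin pair, share a peak of fold 6.30 and 6.25 in V2084D shSTUB1, 5.21 and 5.79 in V2084D, and 5.36 and 5.50 in WT. HSPA5, the HSP70 of the endoplasmic reticulum, had a peak in all 6 libraries, with folds of 4.89 to 8.65. Of the small heat shock protein genes HSPB6 alone had a peak, in all 6 libraries, and the other 7 matched had none. HSF1 had a low peak in 3 libraries, 1 of each group, with folds of 5.26 in V2084D shSTUB1, 3.67 in V2084D and 3.98 in WT.

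Among these 42 genes, 4 had a peak throughout the V2084D libraries and nowhere in WT: HSPA6, HSPA4L, HSBP1 and FKBP4. None of the 42 had the opposite pattern, and none differed in this way between V2084D shSTUB1 and V2084D in either direction. Between V2084D shSTUB1 and WT there were 3, HSPA6, HSPA4L and HSPA12A, and none in reverse. The 4 and 3 genes are 9.52% and 7.14% of the 42, beside 5.07% and 7.07% of all genes. The list was chosen with earlier results of these data known, so these shares describe the listed genes only. HSPA6, a strictly heat-inducible HSP70, had folds of 7.65 and 6.18 in V2084D shSTUB1 and of 8.23 and 6.70 in V2084D, and HSPA7 is a near-identical pseudogene copy of it, so its peaks are uncertain. HSPA4L, a further HSP110 gene, had folds of 8.26 and 5.75 in V2084D shSTUB1 and of 5.88 and 5.73 in V2084D. The peaks of HSBP1, an inhibitor of HSF1, were on 4 reads in V2084D replicate 1 and 9 in V2084D replicate 2 and did not overlap each other. The FKBP4 peaks, at a co-chaperone of HSP90 with prolyl isomerase activity, overlapped and had folds of 4.55 and 5.31 in V2084D. The WT lists held 10441 and 7401 summits, beside 21728 and 15326 in V2084D shSTUB1 and 9231 and 30768 in V2084D. The list of WT replicate 1 was thus longer than that of V2084D replicate 1. The part of list length in these counts was not tested.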

How the data were processed

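ATAC-seq of 6 Huh7 libraries gave 6 narrowPeak lists, 1 per library, deposited by the authors and grouped here by their titles. The submitters' processing notes name the build hg38 and the tools MACS2, Bowtie2, Trimmomatic, SAMtools, Picard, deepTools and bedtools. Versions, settings, any offset for the Tn5 insertion site and the treatment of reads with several matches stay unknown (not given in the sources used here). Each peak has a deposited −log10 p, −log10 q, score and fold, all computed by the authors. The values fit a fold that is the ratio of summit reads to local background with 1 added to each. Peaks were called per library and not on pooled samples. The lowest −log10 q was 1.30 to 1.31. The score was not used.

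Whole reads at each summit and relative depth were recovered from the deposited fold and −log10 p, which gave whole numbers for 100% of summits within a tolerance of 0.001 in −log10 p. Chromosomes 1 to 22 and X were kept, leaving out 2.07% to 2.60% of summits. Genes came from RefSeq (GRCh38.p14), whose table used here gives no exons. A peak counted for a window when it overlapped it by 1 bp. Counts of genes were set beside all 19974 protein-coding genes, with no test, since each group had 2 libraries. Promoter windows were aligned globally for identity with Biopython 1.88. Python 3.11.15, pandas 2.3.3, numpy 2.4.6 and scipy 1.17.1 were used, and the read recovery was tested on simulated data. Replicate numbers gave no pairing.

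Named genes were the 10 chaperones, genes whose ends share their peaks, ARID1A, STUB1, listed chaperone genes with a group pattern and up to 4 more, and the 3 genes most like HSPA8 and HSP90AA1. The genes and lists were chosen with earlier results of these data known. Alternatives were lists of equal length, a −log10 q threshold of 5, gene-end windows of 500 and 2000 bp, the summit in place of any overlap, flanks of 5 and 20 kb, each library left out, and, chosen after seeing the data, annotated start sites in place of gene ends.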

Additional observations from a re-analysis of the deposited data

How the results depend on the processing

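Of 144 values recomputed under another setting, 116 stayed within 1.5 times the reported count and 28 moved. Gene-end windows of 500 and 2000 bp, and annotated start sites in place of gene ends, a choice made after seeing the data, moved none.

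With a −log10 q of at least 5, the genes with a gene-end peak fell to 2 in V2084D replicate 1 and 4 in WT replicate 1, where 11.0% and 15.4% of all genes had one. The count with a peak in both V2084D shSTUB1 libraries and neither WT library became 1, HSP90AB1. Peaks outside gene ends were then 3 in V2084D shSTUB1 replicate 2, 0 in V2084D replicate 1, and 1 and 1 in WT. With lists of equal length they were 3 in V2084D shSTUB1 replicate 2, 3 in V2084D replicate 2 and 2 in WT replicate 1. With summits in place of overlap, WT replicate 2 had 1. Flanks of 5 kb left 2 and 1 in V2084D shSTUB1, 2 in V2084D replicate 2, and 1 and 0 in WT. Flanks of 20 kb gave 11 and 8 in V2084D shSTUB1, 6 and 12 in V2084D, and 8 and 4 in WT. Shorter flanks and stricter thresholds hold fewer peaks by construction.

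Leaving out each library in turn gave 0 to 1 genes for V2084D against WT, HSPA1B without V2084D replicate 1 (18.9% of all genes) and HSP90AA1 without WT replicate 1 (12.0%). The reverse gave 0 to 2, HSPA8 and HSP90B1 without V2084D replicate 2 (3.49%). For V2084D shSTUB1 against V2084D it gave 0 to 3, the highest without V2084D replicate 2 (10.8%), and for V2084D shSTUB1 against WT 0 to 2, the highest without WT replicate 1 (15.8%). In the other 2 directions the count stayed at 0. The cause was not tested. No paired analysis was possible because replicate numbers gave no pairing. The results come from no test, and the planned replicate block was not run. Summits of 8 to 12 reads in the median limit what a missing peak can show, and an exact permutation of 2 against 2 libraries cannot go below a two-sided p of 0.333.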
